A study of Mus musculus with 32 samples.

Results

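The genes described here are 9 secreted signals of the 3T3-L1 fat cell precursor: the chemokines Cxcl1, Cxcl5, Cxcl12, Cxcl16, Ccl2, Ccl7 and Cx3cl1, the growth factor Csf1 and the cytokine Il6. They were taken by gene symbol from a deposited table of 20560 genes, and all 9 were found. The set was chosen by an earlier reading of these same libraries, in which Cxcl5 was lower in knockdown than in control libraries on every day. That contrast is therefore described below without a test. RNA sequencing covered 32 libraries. They came from 3T3-L1, an established line of mouse fibroblasts that become fat-storing cells under hormone treatment. The cells carried a scramble control hairpin RNA or 1 of 2 short hairpin RNAs (shRNAs) against Zbtb9, a gene of the zinc finger and BTB domain family. On each of days 0, 3, 7 and 11 there were 4 control libraries and 4 knockdown libraries, 2 for each shRNA. Day 0 was 2 days after the cells had grown confluent in medium with 10% fetal bovine serum. From then the medium held insulin (167 nM), the phosphodiesterase inhibitor 3-isobutyl-1-methylxanthine (0.5 mM) and the glucocorticoid dexamethasone (1 μM). From day 3 it held insulin alone, and from day 7 the serum medium alone. The labels call the libraries of a group biological replicates and do not say whether they came from separate infections, so the p-values measure the spread between these libraries only.

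Chemokines are small secreted proteins that draw leukocytes along a gradient by acting on G protein-coupled receptors, and they are grouped by the spacing of their first cysteines. Cxcl1 and Cxcl5 belong to the group that attracts neutrophils through Cxcr2. Ccl2 and Ccl7 attract monocytes through Ccr2, Cxcl12 holds stem and immune cells through Cxcr4, and Cxcl16 and Cx3cl1 are made as membrane proteins that can be shed. Csf1 is the growth factor of macrophages and Il6 is a cytokine of acute inflammation. In adipose tissue, fat cell precursors are a known source of Ccl2, Cxcl12 and Csf1, and glucocorticoids such as dexamethasone are known to lower the mRNA of many inflammatory genes.

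The class of each chemokine is visible in its coding sequence. The stretches below show how the 7 chemokines differ at the site that names them. They were read 5′ to 3′ from the mouse GENCODE M21 transcripts, with the codons of the first cysteine pair in capitals.
Cxcl5: acggagctgcgtTGTgttTGCttaaccgta
Cxcl1: aatgagctgcgcTGTcagTGCctgcagacc
Cxcl12: ctgagctaccgaTGCcccTGCcggttcttc
Cxcl16: gtcgctggaagtTGTtctTGTgatcgtacc
Ccl2: gccccactcaccTGCTGCtactcattc
Ccl7: aatgcatccacaTGCTGCtatgtcaag
Cx3cl1: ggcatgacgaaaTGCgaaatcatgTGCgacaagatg
A single codon lies between the capitals in Cxcl5, Cxcl1, Cxcl12 and Cxcl16. None lies between them in Ccl2 and Ccl7, and 3 do in Cx3cl1. In Cxcl5 and Cxcl1 the codons for glutamate, leucine and arginine (gagctgcgt and gagctgcgc) come directly before the first cysteine of the pair, which is the known mark of neutrophil-attracting chemokines. Cxcl12 and Cxcl16 lack it. The first cysteine of the pair is encoded by codon 53 in Cxcl5, 33 in Cxcl1, 34 in Ccl2 and 33 in Ccl7.

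A few members sit in pairs on the genome. In the GRCm38 annotation Cxcl5 spans chr5:90759360-90761624 and Cxcl1 chr5:90891241-90893115, both on the plus strand and 129.617 kb apart. Ccl2 at chr11:82035571-82037453 and Ccl7 at chr11:82045712-82047525 are also on the plus strand and lie 8.259 kb apart. Il6 spans chr5:30013114-30019981, Cxcl12 chr6:117168535-117181367, Cx3cl1 chr8:94772009-94782427, all on the plus strand, and Csf1 chr3:107741048-107760469 on the minus strand. Cxcl16 at chr11:70453983-70459984 on the minus strand shares 552 exon bases, 18.3% of its exons, with Zmynd15 on the other strand. The use of strand in counting is not given in the sources used here, so reads in that overlap cannot be told apart.

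Promoter sequences were found for 5 of the 9 members (Cxcl1, Cxcl12, Cx3cl1, Csf1 and Il6) in a RefSeq table of 32851 promoters on GRCm38.p6. Those of Cxcl1 and Il6 are shown because, of the 5, they hold a match to the NF-kB consensus on the gene's own strand. Each is the 250 bases before the start, 5′ to 3′ on the plus strand, at chr5:90890995-90891244 for Cxcl1 and chr5:30012864-30013113 for Il6. Capitals mark matches to the NF-kB consensus.
Cxcl1: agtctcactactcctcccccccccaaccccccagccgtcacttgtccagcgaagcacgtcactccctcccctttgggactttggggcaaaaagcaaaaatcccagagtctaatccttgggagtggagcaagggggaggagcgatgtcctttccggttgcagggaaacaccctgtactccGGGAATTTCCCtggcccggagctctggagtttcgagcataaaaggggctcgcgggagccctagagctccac
Il6: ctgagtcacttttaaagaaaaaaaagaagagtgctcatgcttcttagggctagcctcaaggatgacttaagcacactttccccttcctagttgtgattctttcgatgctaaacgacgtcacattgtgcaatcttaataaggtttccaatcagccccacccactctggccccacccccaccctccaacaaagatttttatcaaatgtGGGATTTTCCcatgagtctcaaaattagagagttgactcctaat
Both strands were searched for the NF-kB consensus and for TATAAA. The Cxcl1 window held GGGAATTTCC on the gene's strand and, overlapping it by all but its outer base, a match on the other strand. The Il6 window held GGGATTTTCC, and that of Csf1 GGAAAGTCCC, which is a match on the strand opposite to the gene. Neither of the windows of Cxcl12 and Cx3cl1 held this consensus, and that of Cx3cl1 alone among the 5 held TATAAA. The NF-kB consensus was in 7.25% of all promoters in the table and TATAAA in 12.4%.

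The libraries held 22280337 to 31073724 reads in genes, as rebuilt from the deposited log2 values. Levels are given below as normalized reads, that is, rebuilt reads over the size factor of each library. Zbtb9 itself had few reads, 6.35 to 22.3 in control and 0 to 19.3 in knockdown libraries. Its knockdown mean was 61.9, 50.6, 42.7 and 54.5% of control on days 0, 3, 7 and 11, and the groups overlapped on days 3 and 11. The day 11 mean joins 88.5% with shRNA 1, whose libraries had 8.17 and 19.3, and 20.5% with shRNA 2, whose libraries had 2.13 and 4.25, against 12.1 to 19.96 in control. Of its exon bases, 84.4% are shared with another gene on the same strand, Ggnbp1, so the reads there could come from either gene. The 8 adipocyte markers summed to 19717 to 20316 normalized reads in control libraries on day 0 and 54958 to 64899 on day 11. Of the 7 macrophage markers in the table, Itgam had 13 reads and Ptprc 16 over all 32 libraries. Csf1r had 615, Mrc1 636, Lyz2 1817, Cd68 3156 and Cd14 16227. Cd14 thus gave most of the list's 367 to 1146 normalized reads.

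Before induction the levels of the 9 genes differed widely. Per kb of exon, Cxcl5 had the highest level of the 9 in control libraries on day 0, at 15246 ± 269 normalized reads per kb (mean ± SD, n = 4 here and for the group levels below). Ccl2 at 8675 ± 366 and Cxcl12 at 8178 ± 61.8 followed, and their libraries overlapped. Ccl7 (5354 ± 327), Csf1 (3468 ± 123), Cxcl1 (2478 ± 109) and Cx3cl1 (1174 ± 64.6) came next, each below the one before in every library. Il6 (38.5 ± 1.38) and Cxcl16 (18.5 ± 4.31) were far below the others. By day 3 the order had turned: Cxcl12 led with 7206 ± 157 per kb, and Cxcl5 at 991 ± 88.9 came below Cx3cl1, Csf1 and Cxcl1, overlapping with Ccl7 at 979.8 ± 49.97. On day 11 Cxcl5 was first again at 9542 ± 679 per kb, with Cxcl12 at 6648 ± 326 and Ccl2 at 5938 ± 458 overlapping behind it. The order depends on the lengths, which join the exons of all annotated transcripts: 8.176 kb for Cxcl12 and 1.863 kb for Cxcl5. In normalized reads alone the control mean of Cxcl12 was above that of Cxcl5, 66867 against 28404 on day 0 and 54355 against 17777 on day 11.

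**Figure D1:**
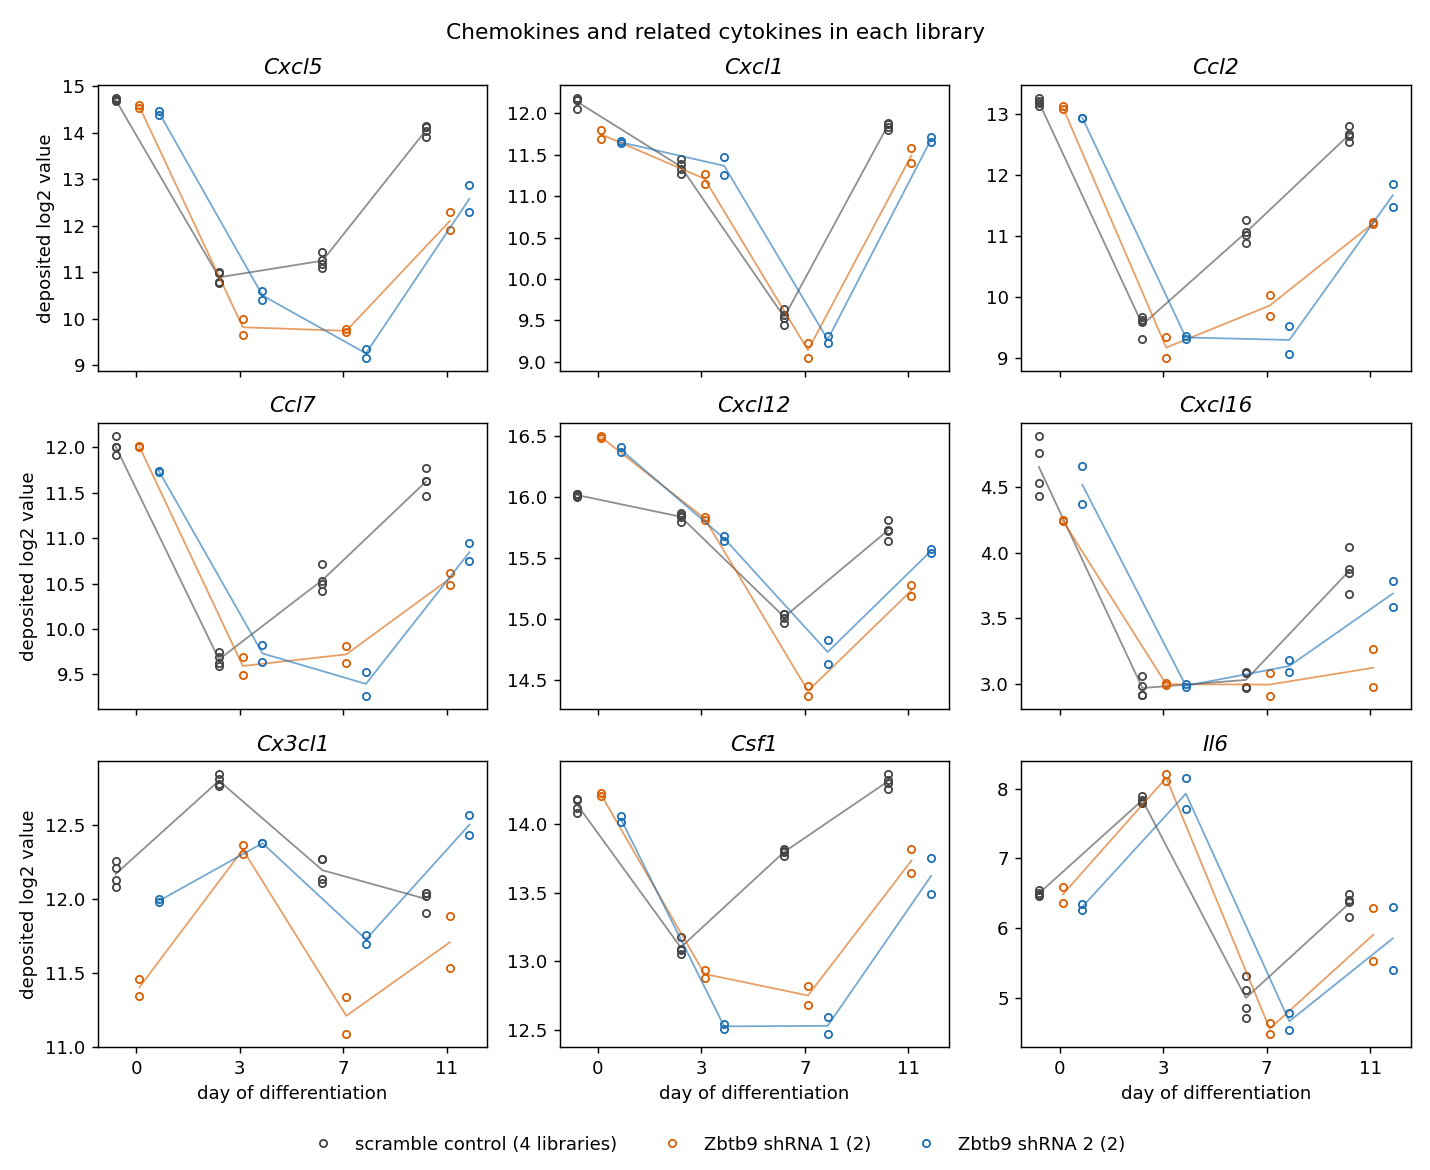
Deposited log2 value (vertical axis) of each of the 9 genes by day of differentiation (horizontal axis), with 1 circle per library and lines through the group means, for 4 scramble control libraries, 2 of shRNA 1 and 2 of shRNA 2 a day. In control libraries Cxcl5 runs from a mean of 14.7 on day 0 to 10.9 on day 3 and back to 14.1 on day 11, whereas Cx3cl1 and Il6 are highest on day 3; each panel has its own vertical scale.

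In control cells the chemokines fell after induction and came back by day 11, while Il6 and Cx3cl1 went the other way first. Cxcl16 passed the filter on low values only through days 0 and 11 and was under it in all 8 control and all 8 knockdown libraries of days 3 and 7, so its steps to and from those days had to differ and are left out of the counts. From day 0 to day 3 the 8 other genes all passed the test (limma, adjusted p under 0.05): 6 fell and Il6 and Cx3cl1 rose. Of all 13421 genes tested in this step, 38.2% fell and 38.3% rose. The median difference of the 8 was -0.91 on the log2 scale, and that of all genes was 0.0022. If the libraries are rescaled to equal totals of the antilogged values, the median of all genes moves by -0.13 and the split of calls from 50.1% to 38.6% higher, and none of the 9 changes direction. The marker lists moved over the same days. Of 7 fibroblast and preadipocyte markers 6 were called lower from day 0 to day 3 and 1 higher (median -1.71). They then had 5 called higher and 2 lower to day 7, and 6 higher and 1 lower to day 11. Their summed level in control libraries was 606409 to 641879 normalized reads on day 0, 209140.0 to 233972 on day 3, 434095 to 469621 on day 7 and 520837 to 588684 on day 11, lowest on day 3 as for Cxcl5, Ccl2, Ccl7 and Csf1. Of 8 adipocyte markers 7 were called higher and 1 lower to day 3, 8 higher to day 7, and 3 higher and 5 lower to day 11. Of all genes 37.6% rose and 36.6% fell to day 7, and 28.9% rose and 26.1% fell to day 11. The part of these markers in the chemokine steps was not tested.

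The neutrophil-attracting pair moved unequally. Cxcl5 had 28238, 27985, 28262 and 29132 normalized reads in the 4 control libraries on day 0 and 1710.4, 1698, 2001 and 1979 on day 3. The groups were far apart, and the mean normalized reads fell 15.4-fold, a log2 difference of -3.82 ± 0.071, limma adjusted p = 7.29e-18 (differences are given ± their standard error). On day 7 the libraries had 2422, 2262, 2139 and 2745, a rise of 0.36 ± 0.071, limma adjusted p = 0.00027. By day 11 they had 18677, 17539, 18809 and 16084, which was 7.43-fold above day 7 (2.81 ± 0.071, limma adjusted p = 2.6e-15) and still below day 0. Cxcl1, its neighbour on chromosome 5, fell less and later. It went from 4728, 4347, 4709 and 4803 on day 0 to 2832, 2475, 2696 and 2597 on day 3, a change of -0.78 ± 0.044, limma adjusted p = 1.86e-17. Its lowest point was day 7, with 699, 656, 718 and 756, 3.75-fold under day 3 (-1.82 ± 0.044, limma adjusted p = 1.46e-27). On day 11 it had 3842, 3744, 3873 and 3633, a rise of 5.34-fold (2.31 ± 0.044, limma adjusted p = 3.63e-30).

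The monocyte-attracting pair had its low point on day 3. Ccl2 had 9725, 10019, 9385 and 10361 normalized reads on day 0 and 733, 597, 783 and 753 on day 3, a 13.8-fold fall (-3.65 ± 0.088, limma adjusted p = 5.93e-15). It then rose at both later steps, to 2074, 1873, 2141 and 2485 on day 7 (1.51 ± 0.088, limma adjusted p = 4.95e-10) and to 6794, 6620.1, 7436 and 6179 on day 11 (1.60 ± 0.088, limma adjusted p = 5.99e-10). Ccl7, which lies beside it, followed the same course with smaller steps. Its control mean was 4288 ± 262, 785 ± 40.0, 1487 ± 144 and 3247 ± 288 on days 0, 3, 7 and 11. The 3 log2 steps of Ccl7 were -2.35 ± 0.061, limma adjusted p = 8.44e-22, 0.87 ± 0.061, limma adjusted p = 1.73e-12 and 1.08 ± 0.061, limma adjusted p = 6e-14.

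Csf1, the macrophage growth factor, also had its lowest level on day 3 and was the only member called above its day 0 level on day 11. It had 17540.4, 18908, 18025 and 18787 normalized reads on day 0, 8418, 9194, 8602 and 8636 on day 3, 13997, 14335, 14566 and 14377 on day 7 and 20804, 20522, 21436 and 19922 on day 11. The libraries of the 4 days did not overlap. The steps were -1.04 ± 0.034, 0.70 ± 0.034 and 0.51 ± 0.034 on the log2 scale (limma adjusted p = 3.57e-24, 7.53e-19 and 8.53e-15). Cxcl12, the ligand of Cxcr4, changed little at first and was lowest on day 7. Its control libraries ranged over 66308 to 67449 on day 0, 57189 to 60166 on day 3, 31619 to 33411 on day 7 and 51246 to 57755 on day 11. The fall to day 3 was -0.18 ± 0.034, limma adjusted p = 2.04e-05 and that to day 7 -0.82 ± 0.034, limma adjusted p = 5.76e-21.

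Il6 and Cx3cl1 were highest on day 3, when the cells had been in the hormone mix. Il6 had 91.8, 94.1, 90.1 and 97.8 normalized reads on day 0 and 275, 286, 278 and 299.8 on day 3, a rise of 3.05-fold (1.34 ± 0.11, limma adjusted p = 1.09e-12). On day 7 its libraries had 15.7, 12.2, 29.1 and 21.9, a 14.4-fold fall (-2.84 ± 0.11, limma adjusted p = 2.11e-21). On day 11 they were back at 85.4, 69.1, 93.1 and 83.6, overlapping with day 0 (log2 difference -0.14 ± 0.11, limma adjusted p = 0.278). Cx3cl1 had control means of 4612 ± 254, 7246 ± 187, 4701 ± 297 and 4087 ± 186. Its rise to day 3 was 0.63 ± 0.042, limma adjusted p = 1.57e-15, and it fell again from day 7 to day 11, with -0.19 ± 0.042 (limma adjusted p = 0.000187). Cxcl16 was hardly measurable between the ends of the course. It had 42.3 to 71.3 normalized reads on day 0, at most 3 reads in any control library on days 3 and 7, and 15.2 to 26.2 on day 11.

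From day 7 to day 11 the 8 genes other than Cxcl16 moved largely one way. After day 3, 4 members had risen by day 7 (Ccl2, Ccl7, Csf1 and Cxcl5), where 37.6% of all genes rose, and 4 had fallen (Il6, Cxcl1, Cxcl12 and Cx3cl1), where 36.6% did. From day 7 to day 11, after insulin was withdrawn, 7 of 8 rose and Cx3cl1 fell, against 28.9% of all genes that rose and 26.1% that fell. The median difference of the 8 was 1.22 on the log2 scale, against 0.015 for all genes. On day 11 against day 0, 6 of these 8 were lower (31.6% of all genes were), and Il6 did not pass the test. Csf1 was higher at 0.17 ± 0.034, limma adjusted p = 6.39e-05, where 33% were. Cxcl16 was lower as well. Cxcl5 ended at -0.66 ± 0.071 and Ccl2 at -0.53 ± 0.088 relative to day 0. No call on a member in the control time course changed in any of the 143 combinations of member and alternative run for each step.

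**Figure D2:**
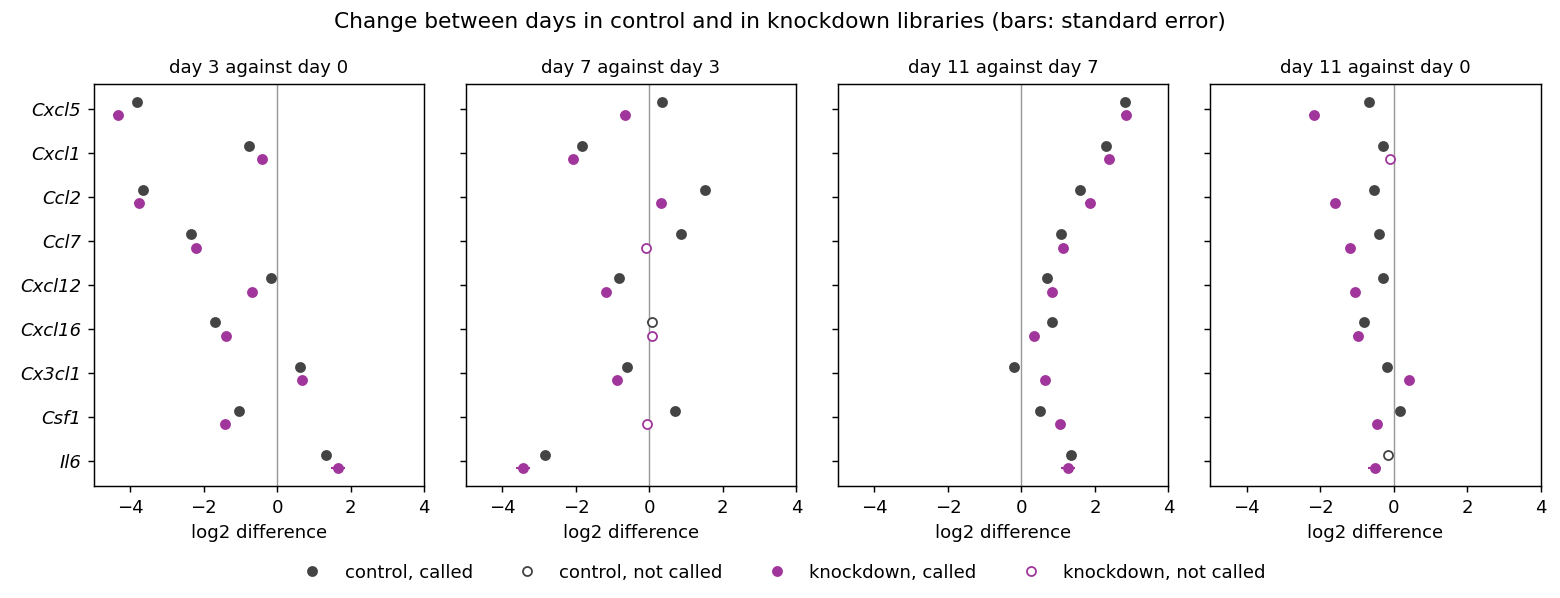
Log2 difference between days (horizontal axis) of each of the 9 genes (vertical axis), in control libraries (grey, 4 a day) and knockdown libraries (purple, 4 a day), with bars for the standard error and filled points for an adjusted p under 0.05. In the step from day 3 to day 7 the control point of Ccl2 lies at 1.51 and the knockdown point at 0.32; for Cxcl5 they lie at 0.36 and -0.66, and the first 3 steps of Cxcl16 involve days 3 or 7, where it was under the filter.

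In the knockdown libraries the fall to day 3 and the rise after day 7 were seen for most members as well, and the middle step held fewer rises. From day 0 to day 3 the 8 members other than Cxcl16 passed the test there too, with 6 lower and 2 higher, where 38.8% and 39.3% of all genes were. Cxcl5 fell from 24389.5 ± 1516 to 1122 ± 336 normalized reads (-4.34 ± 0.14, limma adjusted p = 1.89e-09) and Ccl2 from 8746 ± 637 to 578 ± 68.3 (-3.77 ± 0.13, limma adjusted p = 8.91e-10). Rescaling to equal totals moves the median of all genes by -0.16 in this step and the share of calls that are higher from 50.3% to 38.1%. From day 3 to day 7, 1 member rose (39.3% of all genes did) and 5 fell (36.2% did). Cxcl5, which rose in control cells, fell from 955 and 745 (shRNA 1) and 1495 and 1291 (shRNA 2) to 779 and 816 and 600.0 and 519 normalized reads. The log2 difference was -0.66 ± 0.14, limma adjusted p = 0.00234, although the libraries of the 2 days overlapped. Csf1, with -0.077 ± 0.051 (limma adjusted p = 0.176), and Ccl7, with -0.10 ± 0.067 (adjusted p = 0.17), did not pass the test, but Ccl7 did without shRNA 2 replicate 1 of day 7 (-0.17, adjusted p = 0.0268). The rise of Ccl2, 0.32 ± 0.13, limma adjusted p = 0.044, was lost without any of shRNA 1 replicate 2 or either shRNA 2 replicate of day 3, or shRNA 1 replicate 2 or shRNA 2 replicate 1 of day 7 (0.21 to 0.34, adjusted p = 0.0818 to 0.135). On the rebuilt reads, voom gave an adjusted p = 0.0728 for it.

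From day 7 to day 11 the 8 members other than Cxcl16 rose in knockdown libraries, where 30.9% of all genes rose and 30% fell. In the same step 5 of 7 fibroblast and preadipocyte markers were called higher and 1 lower. Of 8 adipocyte markers 2 were called higher and 5 lower, and of 5 macrophage markers tested 4 were called higher. The part of these markers in the step was not tested. Cxcl5 rose 7.92-fold (2.84 ± 0.14, limma adjusted p = 1.26e-07), Cxcl1 5.68-fold (2.39 ± 0.055, limma adjusted p = 8.24e-21) and Ccl2 3.80-fold (1.86 ± 0.13, limma adjusted p = 7.28e-07). Cx3cl1, which fell over these days in control cells, rose by 0.64 ± 0.068, limma adjusted p = 6.73e-07. Cxcl16 had 0 to 4.20 normalized reads on day 7 and 1.02 to 18.1 on day 11. On day 11 against day 0, 6 of these 8 were lower and Cx3cl1 was higher (36.9% and 37% of all genes were), at -2.16 ± 0.14 for Cxcl5, -1.59 ± 0.13 for Ccl2, -1.17 ± 0.067 for Ccl7 and 0.41 ± 0.068 for Cx3cl1. With rescaled totals the median of all genes moves by -0.10 and the share of calls that are higher from 50.1% to 40.1%. Il6, -0.52 ± 0.18, limma adjusted p = 0.0183, was lower in the full set but not without shRNA 1 replicate 1 or shRNA 2 replicate 1 of day 0, or shRNA 1 replicate 1 (-0.33) or shRNA 2 replicate 2 (-0.29) of day 11 (adjusted p = 0.05 to 0.103). Cxcl1 did not pass (-0.11 ± 0.055, limma adjusted p = 0.0796), but did with rescaled totals (-0.21, adjusted p = 0.00229), with voom (adjusted p = 0.0441) and without shRNA 1 replicate 2 of day 11 (-0.16, adjusted p = 0.0162). Whether a step differs between the knockdown and control courses was not tested, since that difference is built from the contrast that chose Cxcl5.

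Set against control libraries of the same day, the knockdown libraries had less Cxcl5 throughout and less of most members on days 7 and 11. These values include the ones that chose the set and are a description. On day 0 Cxcl5 had 26111 and 24923 with shRNA 1 and 24005 and 22519 with shRNA 2, all below the 4 control values given above, with a knockdown mean of 85.9% of control (log2 difference -0.22 ± 0.047). On day 3 it was 955 and 745 with shRNA 1 and 1495 and 1291 with shRNA 2, 60.7% of control (-0.73 ± 0.21). On day 7 the libraries had 779 and 816 with shRNA 1 and 600.0 and 519 with shRNA 2, 28.4% of control (-1.75 ± 0.13). On day 11 they had 5024 and 3832 with shRNA 1 and 7614 and 5025 with shRNA 2, 30.2% (-1.71 ± 0.18). No knockdown library overlapped with control on any day. Cx3cl1, Cxcl1 and Csf1 lay wholly below on 3 days each, and none of the other 8 lay below on all 4.

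**Figure D3:**
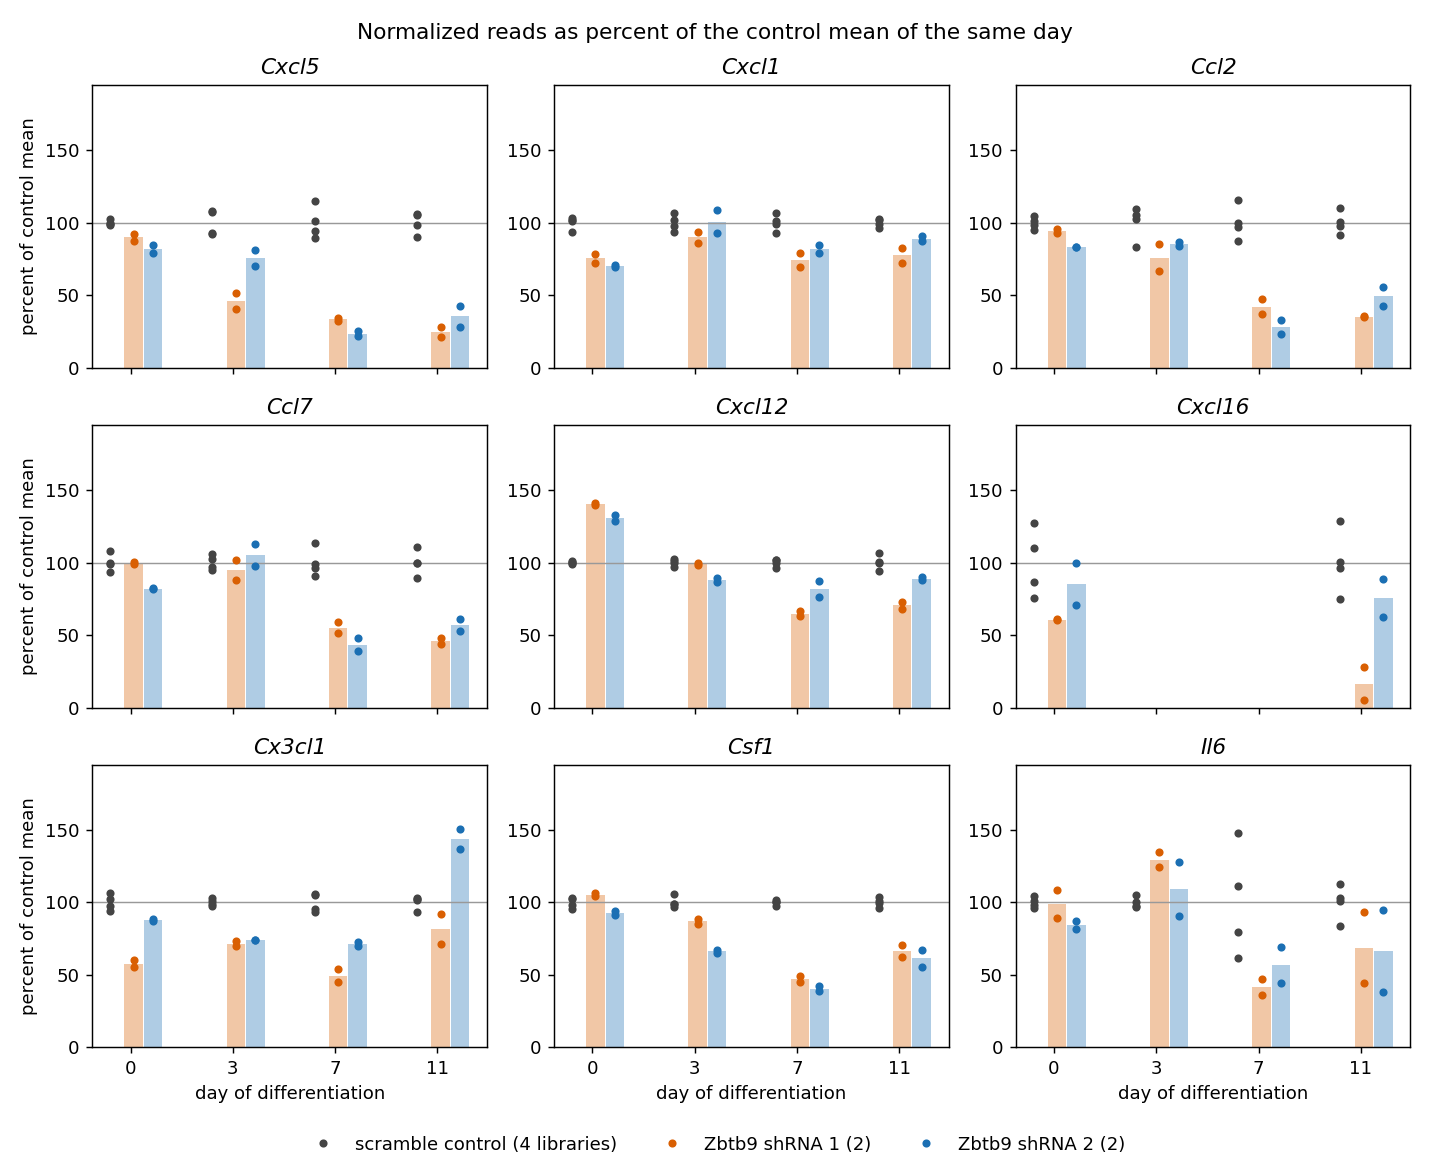
Normalized reads as percent of the control mean of the same day (vertical axis, from 0) by day (horizontal axis), with bars for the mean of each shRNA (2 libraries) and points for single libraries of control (4), shRNA 1 and shRNA 2. Cxcl5 stands at 85.9, 60.7, 28.4 and 30.2% over both shRNAs, and Cxcl12 at 136% on day 0; Cxcl16 is left out on days 3 and 7, where it had few reads.

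Ccl2 and Ccl7 lay near control early and well below it later. Ccl2 knockdown libraries overlapped with control on days 0 and 3, at 88.6 and 80.6% of the control mean. On day 7 they had 789.5 and 1016 with shRNA 1 and 701 and 502 with shRNA 2, 35.1% of control and wholly below it (-1.48 ± 0.19). On day 11 they had 2344 and 2409.6 with shRNA 1 and 3784 and 2885 with shRNA 2, 42.3% (-1.22 ± 0.14). Ccl7 showed the same separation from control on days 7 and 11, at 49.3 and 51.6%, and overlapped on days 0 and 3, at 90.9 and 100%. Csf1 lay below control from day 3 on. It had 7725 and 7436 with shRNA 1 and 5686 and 5847 with shRNA 2 on day 3 (76.6% of control), 7100.4 and 6462 with shRNA 1 and 6046 and 5527 with shRNA 2 on day 7 (43.9%, -1.16 ± 0.063) and 14573 and 12860.1 with shRNA 1 and 13850.2 and 11524 with shRNA 2 on day 11 (63.9%). In knockdown libraries the day 7 level of Csf1 and its day 3 level overlapped, at 6284 ± 665 and 6673 ± 1056.

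Cxcl12 changed side over the course. On day 0 it had 94369.6 and 93426 with shRNA 1 and 88594 and 86056 with shRNA 2, all above the control range of 66308 to 67449 (0.42 ± 0.04). On day 3 the groups overlapped. On day 7 it had 21904 and 20596 with shRNA 1 and 28577 and 24914 with shRNA 2, and on day 11 39525 and 37061 with shRNA 1 and 48867 and 47647 with shRNA 2, all below control (-0.45 ± 0.08 and -0.33 ± 0.091). Cxcl1 was at 72.9, 78.1 and 83.2% of control on days 0, 7 and 11, below it in each library, and overlapped on day 3. Cx3cl1 was at 72.7, 72.7 and 60.4% on days 0, 3 and 7, also with no overlap. On day 11 its shRNA 1 libraries, 3752 and 2915, lay below the control range of 3809.6 to 4199, and its shRNA 2 libraries, 6145 and 5578, above it. Il6 overlapped with control on every day and Cxcl16 did on days 0 and 11.

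By count, all 4 knockdown libraries lay below all 4 control libraries for 3 members on day 0, 3 on day 3, 7 on day 7 and 6 on day 11. Over all genes tested the share was 7.98, 12.8, 20.9 and 17.3%. The members were chosen on this contrast, so nothing is read from the excess. Cxcl12 lay wholly above control on day 0 and no member did later, where 5.95, 15.5, 23.3 and 17% of all genes did. Cxcl16 was under the filter on low values on days 3 and 7, so 8 members entered those counts. The marker lists moved with the same contrast. All 8 adipocyte markers were called higher in knockdown on days 3, 7 and 11, where 14.6, 24.9 and 16.8% of all genes were, and 1 was on day 0 (0.817%). On day 7 they summed to 129737 to 200746 normalized reads against 47465 to 51561 in control. Of 7 fibroblast and preadipocyte markers 1, 2, 6 and 4 were called lower on days 0, 3, 7 and 11, where 2.44, 12.1, 22.6 and 16.2% of all genes were, and 1 was called higher on day 3. On day 7 they summed to 332299 to 383846 against 434095 to 469621. The macrophage list summed to 367 to 527 against 527 to 572 on day 7 and to 972 to 1146 against 754 to 864 on day 11. Its genes did not move as 1: of 5 tested, 1 was called higher and 2 lower on day 7. On day 11, 1 was called higher, and 2 of the 5 had a lower estimate. In bulk RNA, fewer cells of a type and less RNA per cell cannot be told apart, and the part of these markers in the chemokine differences was not tested.

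The 2 shRNAs differed from each other in most members on at least 1 day, a comparison that did not enter the choice of genes. Each shRNA had 2 libraries a day, and the spread was taken from all 8 libraries of that day. Where 1 library is left out below, its shRNA is left with 1 library, which is assumed to vary like the other groups. On day 0, 5 members were lower with shRNA 2 than with shRNA 1 and Cx3cl1 was higher. Of all genes 16.4% were lower and 18.6% higher. Cx3cl1 had 2553 and 2765 with shRNA 1 and 4015 and 4077 with shRNA 2, a log2 difference of 0.59 ± 0.051, limma adjusted p = 3.59e-10. The 5 lower members differed by -0.27 (Ccl7) to -0.10 (Cxcl12). With no trend or robust step, or in 1 fit of all 32 libraries, 3 members passed on day 0. The calls on Cxcl5 and Cxcl12 were lost without shRNA 1 replicate 1 or shRNA 2 replicate 2 (adjusted p = 0.127 and 0.174, and 0.073 and 0.117), and the difference of Cxcl5 was then -0.097 and -0.085. On day 3 Cxcl5 was higher with shRNA 2 at 0.68 ± 0.12, limma adjusted p = 0.00271, and Csf1 at -0.38 ± 0.047, limma adjusted p = 9.08e-08 and Cxcl12 at -0.16 ± 0.04, limma adjusted p = 0.0024 were lower, where 10.6% and 8.94% of all genes were. The call on Cxcl12 was lost with no trend or robust step (adjusted p = 0.0831). Cxcl1 and Il6 did not pass on day 3. With 1 library left out, the difference of Cxcl1 ranged from 0.048 to 0.26, the highest without shRNA 2 replicate 2. That of Il6 ranged from -0.45, without shRNA 2 replicate 1, to -0.0074.

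On day 7 the sign for Cxcl5 was the opposite, and the difference between the days was not tested. It was lower with shRNA 2, at -0.48 ± 0.09, limma adjusted p = 0.000606, as were Csf1 and Ccl7, while Cx3cl1 (0.52 ± 0.073, limma adjusted p = 2.54e-05) and Cxcl12 (0.32 ± 0.062, limma adjusted p = 0.000646) were higher. Of all genes 8.9% were lower and 7.52% higher on that day, and with rescaled totals the share of calls that are higher goes from 45.8% to 61.9%. Without shRNA 2 replicate 2, or with no trend or robust step, 3 of the 8 members passed rather than 5. Without shRNA 2 replicate 2 the difference of Ccl7 went from -0.33 to -0.19 and its call was lost, as it was without shRNA 1 replicate 2 (-0.23, adjusted p = 0.268), with no filter (adjusted p = 0.102) and with rescaled totals (-0.29, adjusted p = 0.0572). The call on Csf1 was lost without shRNA 1 replicate 1 or shRNA 2 replicate 2 (adjusted p = 0.193 and 0.139). Ccl2 did not pass (-0.56 ± 0.20, limma adjusted p = 0.108), but did with no filter (limma adjusted p = 0.0428) and when all 32 libraries were fitted at once (limma adjusted p = 0.0146). With 1 library left out its difference ranged from -0.79, without shRNA 2 replicate 1, to -0.34. On day 11, 6 of 9 members were higher with shRNA 2 and none was lower, where 11.6% of all genes were higher and 10.4% lower. Among the 6, the difference was largest for Cx3cl1, 0.80 ± 0.094, limma adjusted p = 6.53e-05, followed by Cxcl16 (0.57 ± 0.18, limma adjusted p = 0.0349), Ccl2 (0.46 ± 0.11, limma adjusted p = 0.0117), Cxcl12, Ccl7 and Cxcl1. Several calls rest on 1 library: without shRNA 1 replicate 1 of day 11, 2 members passed, and without shRNA 2 replicate 1, 1 did. Without the latter the difference of Ccl2 was 0.27 and that of Ccl7 0.19, and without the former that of Cxcl1 was 0.10. The call on Cxcl1 was lost without shRNA 1 replicate 1 or either shRNA 2 replicate (adjusted p = 0.0736 to 0.324), and that on Ccl7 without shRNA 1 replicate 1 or shRNA 2 replicate 1 (adjusted p = 0.149 and 0.238). Both were also lost with no filter (adjusted p = 0.0833 and 0.0715) and with no trend or robust step (adjusted p = 0.125 and 0.111). The calls on Cxcl16 and Ccl2 were each lost without 1 of 3 libraries (adjusted p = 0.0524 to 0.19 and 0.0571 to 0.0838), and that on Cxcl12 without shRNA 2 replicate 1 (adjusted p = 0.0536). Cxcl5, at 0.48 ± 0.20 (limma adjusted p = 0.146), did not pass as fitted, but did in 1 fit of all 32 libraries (limma adjusted p = 0.025). With 1 library left out its difference ranged from 0.19 to 0.77, the highest without shRNA 2 replicate 2.

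**Figure D4:**
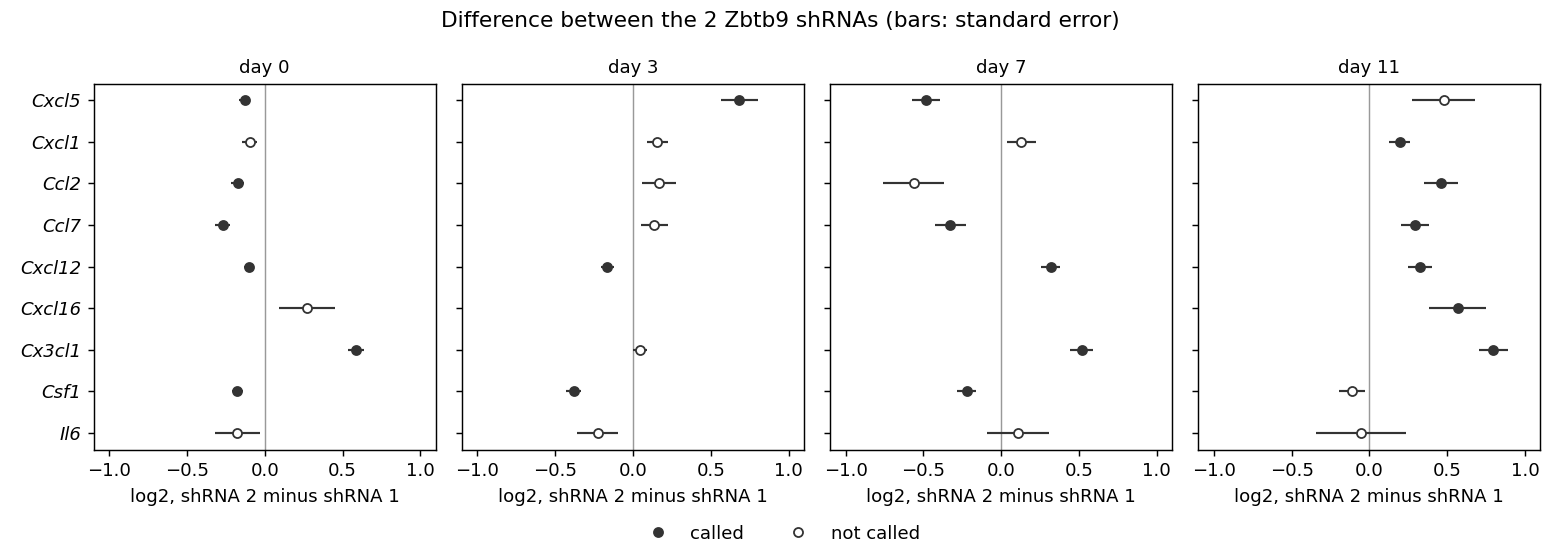
Log2 difference of shRNA 2 minus shRNA 1 (horizontal axis, 2 libraries each) for the 9 genes (vertical axis) on each day, with bars for the standard error and filled points for an adjusted p under 0.05. Cx3cl1 lies at 0.59, 0.044, 0.52 and 0.80, and Cxcl5 at -0.13, 0.68, -0.48 and 0.48; Cxcl16 has no point on days 3 and 7, where it was under the filter.

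The other genes of the chemokine pathway moved in both directions in the control course. The lists held other ligands (24 of 28 in the table), chemokine receptors (11 of 16), NF-kB and cytokine signalling genes (26 of 26) and ligand-processing enzymes (2 of 3), and 44 or 45 of them passed the filter. The main receptors of Ccl2 and Cxcl12 were not analysed here. From day 0 to day 3, 19 of 45 rose and 19 fell in control libraries, where 38.3% and 38.2% of all genes did. From day 3 to day 7, 16 rose and 25 fell (37.6% and 36.6% of all genes). From day 7 to day 11, 23 rose and 9 fell (28.9% and 26.1%), with a median of 0.17. Cxcl13, which attracts B cells, had 0 reads in all 4 control libraries on day 0 and 639.6 ± 40.0 normalized reads on day 3. It then went from 375 ± 43.0 on day 7 to 15.2 ± 3.94 on day 11. The monocyte chemokines Ccl8 and Ccl9 fell to day 3 (-2.60 ± 0.13, limma adjusted p = 3.89e-19 and -2.50 ± 0.06, limma adjusted p = 4.98e-29) and rose from day 7 to day 11 (1.71 ± 0.13, limma adjusted p = 1.44e-13 and 1.08 ± 0.06, limma adjusted p = 1.2e-17); Ccl2 moved in these directions too. Csf3, the neutrophil growth factor, and Il33, an alarm cytokine, fell from day 3 to day 7 (-2.23 ± 0.13, limma adjusted p = 3.31e-17 and -2.11 ± 0.10, limma adjusted p = 3.99e-19). Tlr2, a receptor for bacterial lipoproteins, rose at that step, 3105 ± 158 against 924 ± 44.1 normalized reads. Between day 0 and day 11 Nfkbie, an inhibitor of NF-kB, and the chemokine Ccl5 fell (-1.51 ± 0.06, limma adjusted p = 3.57e-21 and -1.15 ± 0.12, limma adjusted p = 3.35e-10), and Tlr4, the lipopolysaccharide receptor, rose (1.19 ± 0.06, limma adjusted p = 6.44e-18). On this last comparison 14 genes were higher and 16 lower, where 33% and 31.6% of all genes were.

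In knockdown libraries 23 of 45 pathway genes rose and 20 fell from day 0 to day 3, where 39.3% and 38.8% of all genes did. To day 7, 11 rose and 24 fell (39.3% and 36.2% of all genes), and to day 11, 21 rose and 12 fell (30.9% and 30%). On day 11 against day 0, 19 were higher and 17 lower (37% and 36.9%). Cxcl13 again rose to day 3 (465 ± 20.2 against 1.37 ± 0.913 normalized reads, limma adjusted p = 3.56e-23) and fell after day 7 (14.6 ± 7.30 against 479 ± 45.2, adjusted p = 1.02e-20), and Ccl9 and Nfkbie fell to day 3 (-2.84 ± 0.09, limma adjusted p = 5.89e-19 and -2.13 ± 0.09, limma adjusted p = 2.73e-16). From day 3 to day 7 Il17ra, a chain of the interleukin 17 receptor, fell by 1.37 and Lif, a cytokine of the Il6 family, by 1.14 on the log2 scale, and Tnfaip3, which dampens NF-kB signalling, rose by 1.11 ± 0.06, limma adjusted p = 9.21e-15. From day 7 to day 11 Ackr3, the scavenging receptor of Cxcl12, rose from 224 ± 31.2 to 1048 ± 315 normalized reads (2.01 ± 0.09, limma adjusted p = 1.4e-15), and Lif rose by 1.37 ± 0.11, limma adjusted p = 2.76e-11. On day 11 against day 0 Nfkbie (-2.04 ± 0.09, limma adjusted p = 9.57e-16) and Ccl5 (-1.23 ± 0.12, limma adjusted p = 2.36e-09) were lower and Tlr4 (1.21 ± 0.06, limma adjusted p = 2.46e-15) was higher.

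In knockdown against control, 7 of 44 pathway genes were called on day 0, all lower (2.44% of all genes were called lower and 0.817% higher). With rescaled totals the share of all calls that are higher goes from 25.1% to 43.3% on that day, and 4 pathway genes are called. A replicate block left 0 pathway genes called, the shRNAs as separate groups gave 22, and 1 fit of all 32 libraries gave 19. Without control replicate 1, 2 or 3 there were 2, without control replicate 4 or shRNA 1 replicate 1 there were 4, and without shRNA 1 replicate 2 there were 3. On day 3, 3 of 45 were higher and 16 lower (14.6% and 12.1% of all genes), on day 7, 8 of 44 and 16 (24.9% and 22.6%), and on day 11, 10 of 44 and 14 (16.8% and 16.2%). The NF-kB and cytokine signalling list, which holds 26 of the 44 or 45 genes tested, had 4, 10, 17 and 15 called on days 0, 3, 7 and 11. Of these 0, 2, 6 and 7 were higher and 4, 8, 11 and 8 lower. Nfkbie was lower on day 0 (-0.33 ± 0.05, limma adjusted p = 0.00751), on day 7 (197 ± 40.4 against 509 ± 27.9 normalized reads, -1.26 ± 0.11, limma adjusted p = 1.66e-07) and on day 11 (-0.86 ± 0.08, limma adjusted p = 1.06e-05). Ccl9 was lower on days 0 and 3 (-0.39 ± 0.05, limma adjusted p = 0.00297 and -0.72 ± 0.12, limma adjusted p = 0.000429), and Tlr2 on day 7 (-0.99 ± 0.10, limma adjusted p = 4.96e-06). Ccl8 was lower on day 11, 55.8 ± 37.2 against 160.2 ± 24.5 normalized reads (-1.27 ± 0.26, limma adjusted p = 0.00487). Some ligands were higher: Cxcl10, an interferon-induced chemokine, on day 3 (1.37 ± 0.27, limma adjusted p = 0.00551), Il33 on day 7 (0.67 ± 0.12, limma adjusted p = 0.000284) and Lif on day 11 (0.96 ± 0.17, limma adjusted p = 0.00146). Il33 had been lower on day 0 (-0.58 ± 0.10, limma adjusted p = 0.0146), a call that needed each of control replicates 1, 2 and 3 (without one of them, adjusted p = 0.0582 to 0.0608), and Csf3 was lower on day 3 (-0.73 ± 0.17, limma adjusted p = 0.00569). With a replicate block the calls on Nfkbie, Ccl9 and Il33 on day 0, Cxcl10 and Csf3 on day 3 and Ccl8 on day 11 were lost.

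Between the shRNAs, 14, 17, 10 and 19 pathway genes were called on days 0, 3, 7 and 11, of 44, 45, 44 and 44 tested. Of these 8, 12, 7 and 12 were higher with shRNA 2, where 18.6, 10.6, 7.52 and 11.6% of all genes were, and 6, 5, 3 and 7 lower, where 16.4, 8.94, 8.9 and 10.4% were. Cxcl10 was lower with shRNA 2 on days 0 and 3 (-0.66 ± 0.16, limma adjusted p = 0.00147 and -1.04 ± 0.16, limma adjusted p = 7.23e-06) and higher on day 11 (165 ± 49.7 against 34.6 ± 5.64 normalized reads, 1.63 ± 0.30, limma adjusted p = 0.00406). Ccl5 was lower on day 3 (-1.09 ± 0.16, limma adjusted p = 4.41e-06), Lif on day 0 (-0.45 ± 0.14, limma adjusted p = 0.0103), and Ackr3 was higher on day 3 (0.77 ± 0.12, limma adjusted p = 5.17e-06). Tnfaip3 was higher on day 0 (0.56 ± 0.08, limma adjusted p = 4.91e-06). Relb, an NF-kB subunit, Il17ra and Myd88, the adaptor of Toll-like receptors, were higher on day 7 (0.48 ± 0.08, limma adjusted p = 7.83e-05, 0.38 ± 0.09, limma adjusted p = 0.00285 and 0.38 ± 0.07, limma adjusted p = 0.00071), and Tlr2 and Zfp36, which promotes decay of cytokine mRNA, on day 11 (0.83 ± 0.10, limma adjusted p = 6.53e-05 and 0.89 ± 0.11, limma adjusted p = 6.09e-05). Leaving out 1 library moved these counts to 7 to 10 on day 0, 14 to 19 on day 3, 5 to 7 on day 7 and 8 to 16 on day 11, and these fits moved a count by over 1.5 times: there were 7, 8 and 9 on day 0 without shRNA 1 replicate 1, shRNA 2 replicate 1 and shRNA 2 replicate 2. On day 7 they were 5 without shRNA 1 replicate 1 and 6 without shRNA 1 replicate 2 or shRNA 2 replicate 1, and on day 11 8 without shRNA 2 replicate 1 and 11 without shRNA 1 replicate 2. The call of Lif was lost without shRNA 1 replicate 1 (adjusted p = 0.18) or shRNA 2 replicate 2 (adjusted p = 0.0698) of day 0 or with no filter (adjusted p = 0.0517), that of Cxcl10 on day 0 when all 32 libraries were fitted at once (adjusted p = 0.0661), and that of Il17ra without shRNA 1 replicate 1 (adjusted p = 0.0578) or shRNA 2 replicate 1 (adjusted p = 0.0653) of day 7.

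Over the 32 libraries the log2 values of Ccl2 and Ccl7 ran nearly together, with a Pearson r of 0.993. Libraries of a group share their day and hairpin, so the points are not independent and this is a description. Among 13571 genes the 5 most like Cxcl5 were Thbs1 (0.983), Ccl7 (0.976), Myh9 (0.972), Fgf7 (0.971), Phldb2 (0.971). Those most like Ccl2 were Ccl7 (0.993), Lrrk1 (0.979), Asah1 (0.978), Ces1a (0.977), Snx9 (0.975). Thbs1 encodes thrombospondin 1, Myh9 a nonmuscle myosin heavy chain, Fgf7 a growth factor for epithelial cells and Asah1 acid ceramidase. Cxcl5 and Ccl2 had an r of 0.97 with each other, Cxcl5 and its neighbour Cxcl1 one of 0.72, and Cxcl1 and Il6 one of 0.65. For Cxcl5 and Il6 the r was 0.058.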

How the data were processed

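RNA of 32 libraries of 3T3-L1 cells was purified on RNeasy columns and sequenced from Illumina TruSeq RNA libraries, per the labels' protocols. TopHat2 2.1.0, Bowtie2 2.2.6, SAMtools 1.3.1 and HTSeq 0.6.1 are named in the submitters' processing notes, and the genome build and use of strand are not given in the sources used here. The deposited table holds log2 values of regularized-log form, from -1.56 to 17.99, made by the authors. That form is inferred from the values: inverting it gave whole reads, within 0.1 of a read, for 97.0% of values (20% by chance) and for 274 of 288 values of the 9 genes. These rebuilt reads give the levels printed and depths of 22280337 to 31073724 reads. A regularized log shrinks differences of genes with few reads, so those are understated.

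The deposited log2 values were tested with limma 3.58.1 in R 4.3.3 (trend and robust empirical Bayes). Genes with 2 to the power of the value of at least 10 in at least 4 libraries entered, p-values were adjusted by Benjamini-Hochberg over all of them, and an adjusted p under 0.05 was a call. The comparisons between days were fitted in the 16 control and in the 16 knockdown libraries. On each day shRNA 2 was set against shRNA 1 (2 libraries each) and knockdown against control (4 each). The fits were also run on simulated reads in which the shRNAs did not differ, so that run cannot speak to genes where they do. The 9 genes and the lists were chosen with earlier results of these data known. Named pathway genes are, in each comparison, the 3 with the largest absolute difference among called list genes whose groups do not overlap and whose higher group has a mean of at least 50 normalized reads. Likeness is Pearson's r over 32 libraries. Of 32 pairs of libraries within a group, all differed by more than counting noise (chi-square per degree of freedom 3.05 to 11.8). The alternatives were another filter, an added pseudocount, rescaling, other variance models, 1 fit of all libraries, the shRNAs as separate groups, a replicate block, each library left out, and voom on the rebuilt reads.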

Additional observations from a re-analysis of the deposited data

Results flagged for a closer look

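In 3 of 72 groups of 4 libraries 1 library stood apart from the others, and chance gives about 1 in 20. Ccl2 in the knockdown libraries of day 3 was lowest in shRNA 1 replicate 2, with a log2 value of 9.009 and a gap of 0.864 of the group's range. Cx3cl1 was lowest in shRNA 1 replicate 1 among the knockdown libraries of day 3, at 12.3 with a gap of 0.84 of the range. Cx3cl1 was also lowest in control replicate 3 of day 11, at 11.9 with a gap of 0.864.

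Cxcl12 lay above control in all 4 knockdown libraries on day 0, by 0.425 on the log2 scale, and below it in all 4 on days 7 and 11, at -0.447 and -0.328. The difference between days was not tested. Cx3cl1 on day 11 lay below control in both shRNA 1 libraries, at -0.293, and above it in both shRNA 2 libraries, at 0.502. Csf1 on day 0 lay above control with shRNA 1, at 0.0742, and below it with shRNA 2, at -0.102. Cx3cl1 and Csf1 were flagged because their shRNAs lay on opposite sides of control, so a difference between the shRNAs follows from that choice. As a description, shRNA 2 against shRNA 1 was 0.80 for Cx3cl1 on day 11 and -0.18 for Csf1 on day 0. Neither shRNA alone was tested against control.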

How the results depend on the processing

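Over the alternatives, 606 of 664 counts stayed within 1.5 times of their value, and of 2275 refits of single tested genes 63 lost and 13 gained a call. In 5 the sign changed, each of a gene not called before or after. In shRNA 2 against shRNA 1 with 1 library left out, Ccl2 on day 3 ranged from -0.0045 to 0.34 and Il6 on day 7 from -0.018 to 0.23. On day 11 Csf1 ranged from -0.24 to 0.016 and Il6 from -0.50 to 0.40, also 0.33 without shRNA 1 replicate 2. No call on the 9 genes changed in the control time course or from day 0 to day 3 in knockdown. Same-numbered libraries of a day paired at most weakly. Of 24 such pairs 3 were over a correlation of 0.1 (median 0.042), against 1 of 56 pairs with other numbers (median -0.011). Between days, within an shRNA or control, it was 5 of 48 against 1 of 96. With a replicate block, knockdown against control gave 0, 845, 4112 and 1652 called genes on days 0, 3, 7 and 11 rather than 430, 3506, 6328 and 4382, and 0, 5, 14 and 7 pathway genes. On day 0, limma with the block had 1067 genes at an unadjusted p under 0.05 (13 of the pathway), and voom called 452 (8 of the pathway). With the block the calls on Nfkbie, Ccl9 and Il33 on day 0 were lost at differences of -0.30, -0.37 and -0.68 (adjusted p = 0.407 to 0.481). So were those on Cxcl10 (1.26, adjusted p = 0.114) and Csf3 (-0.68, adjusted p = 0.0885) on day 3 and Ccl8 on day 11 (-1.38, adjusted p = 0.0523). Between the shRNAs it added calls on Cxcl1 on day 3 (0.0302) and Cxcl5 on day 11 (0.00118). With separate shRNAs there were 3340 genes on day 0 (22 of the pathway) and 5311 on day 3. In 1 fit of all 32 libraries there were 2409 on day 0 (19 of the pathway) and 6792 on day 11. Without trend or robust steps day 0 had 261 (4 of the pathway). Pathway genes on day 0 were 3 with no filter and 4 with rescaled totals.

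Between the shRNAs, without trend or robust steps, pathway genes were 8, 3 and 11 on days 0, 7 and 11 and members 3 on days 0 and 7. All genes were 1454 on day 3 and 1035 on day 7. With no filter there were 9 pathway genes on day 0 and 1710 genes on day 3, and in 1 fit of all libraries 3 members on day 0.

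Leaving out 1 library gave 111 to 562, 2587 to 3883, 5658 to 6291 and 3200 to 4668 genes in knockdown against control on days 0, 3, 7 and 11, and 2 to 6, 15 to 24, 21 to 26 and 16 to 25 pathway genes. Between the shRNAs it gave 3116 to 3472, 1633 to 2329, 1003 to 1492 and 1479 to 2928 genes, 7 to 10, 14 to 19, 5 to 7 and 8 to 16 pathway genes, and 4 to 6, 3 to 4, 3 to 6 and 1 to 5 members.

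Small differences from control changed sign, all in groups that overlap or whose shRNAs lay on both sides of control. Csf1 on day 0 ranged from -0.047 to 0.023 with 1 library left out. It was 0.013 with rescaled totals, 0.0085 and 0.023 without shRNA 2 replicate 1 or 2, and 0.0013 without control replicate 2. Ccl7 on day 3 ranged from -0.059 to 0.053. It was 0.017 with the block, 0.053 without shRNA 1 replicate 2, 0.0058 without shRNA 2 replicate 2, and 0.0073 and 0.024 without control replicate 1 or 3. Cx3cl1 on day 11 ranged from -0.051 to 0.30. It was -0.051 and -0.0057 without shRNA 2 replicate 1 or 2. Il6 on day 7 moved to -0.17 with the block and -0.95 with voom, and Cxcl16 on day 11 to -1.56 with voom. The cause was not tested. Depth limits Cxcl16 and Il6 most, with few reads on some days.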
